A study of Mus musculus with 8 samples.

Results

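The nuclear-encoded genes of the mitochondrial respiratory chain were followed across 4 conditions of the mouse mammary epithelial cell line NMuMG. They were chosen by symbol alone, as the genes whose name begins with *Nduf* and a subunit letter and number, with *Uqcr*, with *Cox4* to *Cox8*, or with *Atp5*, leaving out names that contain -ps. This gave 83 of the 37310 genes counted: 38 named for complex I, 8 for complex III, 19 for complex IV and 18 for complex V. RNA-seq libraries had been made from control cells and from cells with a CRISPR-Cas9 deletion of *Lnc-Nr6a1*, a long non-coding RNA transcribed within *Nr6a1* in the opposite sense, each left untreated or exposed for 2 h to TGFβ1 at 10 ng/ml. There were 2 libraries for each of the 4 groups, called control, control_TGFb2h, KO and KO_TGFb2h. The deletion was made in sorted cells grown singly into clones, and the labels do not say whether the KO libraries come from 1 clone, so a property of a clone and the deletion cannot be told apart.

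The respiratory chain lies in the inner mitochondrial membrane. Complex I takes electrons from NADH, complex III passes them from ubiquinol to cytochrome c, and complex IV hands them to oxygen, while protons are moved across the membrane. Complex V, the ATP synthase, lets the protons flow back and makes ATP. A few core subunits are encoded in mitochondrial DNA and the rest in the nucleus, so that both sets have to be expressed for the complexes to be assembled. TGFβ1 is a signalling protein that drives NMuMG cells towards a mesenchymal state over hours to days.

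The libraries held 4297832 to 13574397 counts, the lowest being KO replicate 1. *Lnc-Nr6a1* is listed as *Gm13507*. It had 3 and 14 counts in the control libraries, 25 and 35 in control_TGFb2h, 11 and 7 in KO, and 0 in both KO_TGFb2h libraries. The untreated libraries were therefore not separated by these counts of the targeted gene, and KO means the libraries labelled knockout. The study itself reported, by RT-qPCR, a complete loss of the isoforms in homozygous clones, whose deletion it had checked by PCR. Of 7 epithelial markers, the keratins *Krt8* and *Krt18* and the cadherin *Cdh1* were high in every library (at least 2124, 2439 and 193 CPM, counts scaled to library size), while *Cldn3* had no count and *Epcam* had 2 counts in 1 library alone. *Krt7* was low, at 0.326 to 1.76 CPM. *Cldn4* averaged 0.0602 CPM in control and 0 in KO, against 6.58 in control_TGFb2h and 7.65 in KO_TGFb2h (SD 7.37 in each treated group). The summed level of the epithelial list was 4854 to 4978 CPM in control, 5326 to 5587 in KO, 7080 to 10000 in control_TGFb2h and 6681 to 9112 in KO_TGFb2h, and of its 5 tested genes *Krt8* and *Krt18* were called higher with TGFβ1 in control (log2 fold changes 0.65 and 0.96, edgeR adjusted p = 0.0472 and 0.0295) and *Cdh1* higher between the treated groups (0.61, adjusted p = 0.0433). The part of these in the differences below was not tested. Fibroblast markers summed to at most 4.72 CPM and the blood marker *Ptprc* reached 0.211 CPM. The 13 subunit genes of mitochondrial DNA, like all 37 genes of that chromosome, are listed at 0 in all 8 libraries, so the mitochondrially encoded subunits were not analysed here. Bulk counts also cannot tell fewer cells from less RNA per cell.

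What the genes share besides their names was looked for in their promoters. A promoter sequence of 250 bases before to 50 bases after the start was given by RefSeq (GRCm38.p6) for 66 of the genes. Letters of 3 motifs were searched on both strands: GCGCATGC, the core of the site of NRF1, a factor known for nuclear genes of mitochondria; CCGGAAG, the site of ETS factors such as GABP; and AAGATGGC, the site of YY1. The NRF1 letters were in 9 of the 66 promoters (13.6%) and in 3.05% of the promoters of all 27025 genes with one. The ETS letters were in 14 (21.2%), beside 9.93% of all, and the YY1 letters in 11 (16.7%), beside 3.19%. At least 1 of the 3 was found for 29 of the 66 genes (43.9%), beside 14.9% of all genes. All genes here means every gene with a promoter sequence, expressed or not. A comparison with genes of similar level was not made, so the shares do not show that the letters are particular to the respiratory chain. The NRF1 letters and their reverse complement can overlap in a promoter, and a gene was counted once. Of the 11 genes called in a comparison below, 9 had a promoter sequence, and these held the NRF1 letters in 0, the ETS letters in 3 (*Atp5h*, *Cox6b1*, *Uqcrh*) and the YY1 letters in 3 (*Atp5f1*, *Ndufa3*, *Ndufs4*).

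A few stretches upstream of the start show these letters in place, with the motif in capitals and 20 bases on either side, read 5′ to 3′ on the strand of the gene. The first 2 carry the NRF1 letters in a complex I and a complex V gene, the next 3 the ETS letters in a complex III, a complex IV and a complex V gene, and the last carries the YY1 letters. *Cox6b1* and *Atp5h* are shown because they passed a test described further on. They lie at chr15:82354347-82354394 (*Ndufa6*), chr15:102671062-102671109 (*Atp5g2*), chr10:80406861-80406907 (*Uqcr11*), chr7:30626116-30626162 (*Cox6b1*), chr11:115419931-115419977 (*Atp5h*) and chr16:84835037-84835084 (*Atp5j*), all on the minus strand of GRCm38.p6.
Ndufa6: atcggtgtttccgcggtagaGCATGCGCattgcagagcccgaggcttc
Atp5g2: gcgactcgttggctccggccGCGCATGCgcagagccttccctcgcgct
Uqcr11: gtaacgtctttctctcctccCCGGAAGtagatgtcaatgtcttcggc
Cox6b1: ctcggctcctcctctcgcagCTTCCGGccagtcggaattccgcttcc
Atp5h: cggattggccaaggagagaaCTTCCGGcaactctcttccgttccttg
Atp5j: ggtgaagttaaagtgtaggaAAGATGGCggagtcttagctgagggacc
The letters stand as the motif in *Atp5g2*, *Uqcr11* and *Atp5j* and as its reverse complement in the other 3. A match says that the letters are present and not that a factor binds there.

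Most of the genes were well expressed. A filter on low counts (filterByExpr of edgeR) kept 75 of the 83, namely 36 of complex I, all 8 of complex III, 13 of complex IV and all 18 of complex V. Of the 75, 63 stood above the median level of all 13028 genes tested, which was 30.2 CPM, and their own median was 83.1 CPM. The highest of the 8 libraries was 1.53 times the lowest for the median gene, 31 of the 75 genes spanned less than 1.5-fold, and 11 spanned 2-fold or more. For the median of all genes tested, that span was 2.06-fold.

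Levels were compared between genes per kb of exon. The median was 56.7 CPM per kb for complex I, 119 for complex III, 135 for complex IV and 65.3 for complex V. In complex I, *Ndufa4* was highest at 437 CPM per kb, followed by *Ndufb9* at 226, an accessory subunit. *Ndufa4* carries a complex I name but is now assigned to complex IV. The lowest detected gene of complex I was *Ndufb2* at 5.03 CPM per kb. In complex III, *Uqcr10* and *Uqcr11*, small accessory subunits, stood at 193 and 138 CPM per kb, and *Uqcrq* was lowest at 32.2. In complex IV, *Cox8a* and *Cox4i1* stood at 583 and 506 CPM per kb. In complex V, the catalytic β subunit *Atp5b* and the α subunit *Atp5a1* stood at 416 and 347 CPM per kb and together made up 63.5% of the summed CPM of the complex. *Atp5s*, a coupling factor of the synthase, was lowest at 2.18.

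**Figure D1:**
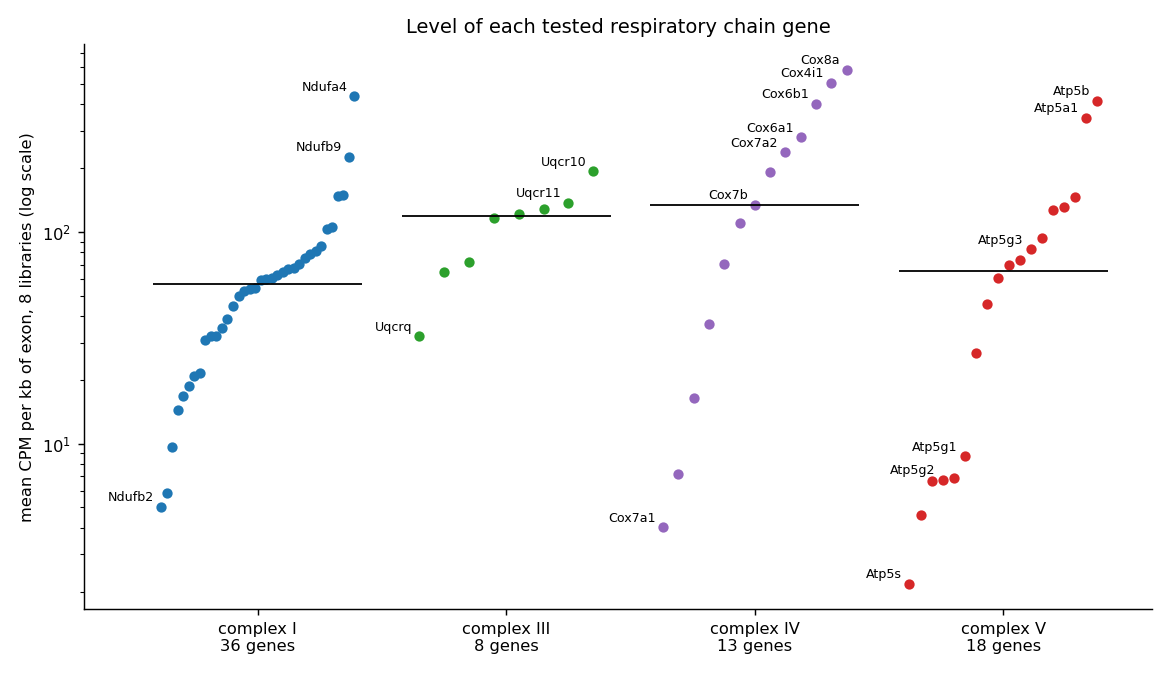
Mean level over the 8 libraries of each of the 75 tested genes, in CPM per kb of exon on a log axis, in order within each complex, with the median as a line. Complex IV reaches from *Cox7a1* at 4.03 to *Cox8a* at 583 CPM per kb, and *Atp5b* and *Atp5a1* stand apart from the other complex V genes.

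For some of the genes the counts are uncertain. Transcripts of 82 of the genes were searched against the genome (NCBIM37) for near-identical copies elsewhere, at 98% identity or more over at least 75 bases, because processed pseudogenes share reads with their parent gene. No copy was found for 65, and for 9 a copy covered at least 50% of the transcript: *Atp5g2* (100%), *Atp5l* (92.6%), *Uqcrb* (90.5%), *Cox5b* (87.8%), *Uqcr11* (85.4%), *Ndufs3* (84.4%), *Atp5h* (80.6%), *Ndufs5* (64.3%) and *Atp5f1* (50.1%). Their median level was 45.4 CPM per kb, against 73.8 for the 57 tested genes with no copy. It was lower still, at 18.6, for the 8 genes whose copy covered less than 50%. *Atp5l* and *Atp5g2*, both subunits of the membrane part of the synthase, were at 6.66 and 6.76 CPM per kb. How the authors counted reads that match several places is not stated, and its part in these levels was not tested.

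Where a subunit has isoforms of different tissues, the widely expressed isoform was the one detected. *Cox4i1* had a mean of 344 CPM, and *Cox4i2*, its lung and hypoxia isoform, had no count in any of the 8 libraries. *Cox6a1* stood at 197 CPM, whereas the heart and muscle isoform *Cox6a2* had a single count in 1 library, control_TGFb2h replicate 1. *Cox8a* stood at 318 CPM and *Cox8b* and *Cox8c* had no count. Likewise no count was listed for *Cox6b2* and *Cox7b2*, testis isoforms, beside 203 CPM of *Cox6b1* and 163 CPM of *Cox7b*, or for *Ndufa4l2*, beside 215 CPM of *Ndufa4*. A count of 0 allows a level of up to 0.238 to 0.661 CPM, depending on the library, from counting error alone (3 counts). The heart and muscle isoform *Cox7a1* was the exception that passed the filter, at 0.723 to 2.64 CPM, while *Cox7a2* was at 160.4 to 218 CPM. Of 5 muscle markers, *Ckm* and *Myh6* had no count, and *Tnnt2* alone was tested. The summed level of that list was 14.1 to 20 CPM in control and 62.4 to 63.7 in control_TGFb2h, and 30.2 to 30.4 in KO and 66.9 to 77.2 in KO_TGFb2h. Its part in the level of *Cox7a1* was not tested.

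The c subunit of the synthase ring is made from 3 genes that encode the same mature protein. Of these *Atp5g3* was highest at 181 CPM, *Atp5g1* stood at 42.7 and *Atp5g2*, with its full-length copy elsewhere, at 4.37. The eighth gene that did not pass the filter was a second identifier of *Ndufb8*, with no count, and the other identifier of that gene stood at 140.0 CPM. *Atp5l2*, at 2.70 CPM, is annotated as a pseudogene. *Cox7a2l* and *Atp5sl* bear names of complexes IV and V but are known as a factor of supercomplexes and an assembly factor of complex I. They stood at 111 to 152 CPM and 10.7 to 16.3 CPM over the 8 libraries and were called in no comparison.

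In the untreated cells, none of the 75 genes passed the test between KO and control. To be called, a gene needed a log2 fold change beyond 0.5 in either direction and an adjusted p under 0.05, and 1.83% of all genes were called in this comparison. The edgeR test left 0 genes called and 4 at an unadjusted p below 0.05, beside 1936 of the 13028 genes, and DESeq2 called 0 as well. The median log2 fold change (KO minus control) was 0.07, beside 0.02 over all genes tested, and by complex it was 0.06 in I, 0.07 in III, 0.10 in IV and 0.11 in V. *Atp5f1*, the b subunit of the stator stalk of the synthase, came nearest. It stood at 278 and 282 CPM in control and at 193 and 179.5 CPM in KO, so that the groups did not overlap. Its log2 fold change was -0.59 ± 0.17 (SE, n = 2 libraries a group; edgeR adjusted p = 0.134). A copy elsewhere covers part of this gene, as given above.

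After TGFβ1, 9 of the 75 genes (12%) were lower in KO_TGFb2h than in control_TGFb2h, beside 6.57% of all genes called lower. One gene (1.33%) was higher, beside 8.47% of all genes. The median log2 fold change was -0.23 and that of all genes -0.01. Values below 0 were seen for 55 of the 75 genes. By complex the median was -0.23 in I, -0.33 in III, -0.29 in IV and -0.17 in V. The 9 tested genes on chromosomes 3 and 7 were all below 0, among them *Cox6b1*, *Ndufa3*, *Atp5f1* and *Ndufb5*, which were called lower. In the untreated comparison these 9 genes were below 0 too, except *Cox7a1*. The part of chromosome position in these differences was not tested. The number called, 10 in either direction beside 15.0% of all genes, moved with the libraries used, as did the share of all genes. With only the 4 libraries compared, 0 of the 75 were called, beside 3.21% of all genes. Without KO_TGFb2h replicate 2 no gene of the 75 was called, beside 3.57% of all genes, and without its replicate 1 there were 3, beside 9.17%. Without either KO library there were 5, beside 9.70 and 9.62%. Without control_TGFb2h replicate 1 there were 14, beside 20.7%, and without its replicate 2 there were 6, beside 9.0%. Of the 8 fits without 1 library, the call was lost in 1 for *Cox6b1* and *Ndufa5*, in 2 for *Ndufa3*, in 3 for *Atp5h* and in 4 for *Atp5f1*.

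The 5 lower genes of complex I are accessory subunits. *Ndufa5*, of the peripheral arm, stood at 42.1 and 40.7 CPM in control_TGFb2h and at 25.9 and 23.4 CPM in KO_TGFb2h. In the untreated groups it was at 43.9 and 39.5 CPM in control and at 37.2 and 37.0 CPM in KO. Thus the KO_TGFb2h libraries were the lowest of the 8. The log2 fold change was -0.75 ± 0.16 (SE; edgeR adjusted p = 0.0147). *Ndufa3* was at 80.7 and 76.6 CPM in control_TGFb2h, and at 43.7 and 48.6 CPM in KO_TGFb2h. The untreated libraries had 64.6 and 51.1 CPM in control and 53.1 and 47.7 CPM in KO. The treated control libraries were thus above all others, and the log2 fold change between the treated groups was -0.77 ± 0.16 (adjusted p = 0.0156).

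*Ndufb5*, of the membrane arm, was at 102 and 101 CPM in control_TGFb2h and between 61.3 and 77.7 CPM in the other 6 libraries. *Ndufs4*, which is needed for assembly of the NADH-binding end of the complex, was at 90.3 and 125 CPM in control_TGFb2h and at most 74.98 CPM elsewhere. *Ndufb3* was at 60.9 and 60.5 CPM in control_TGFb2h and between 40.6 and 47.7 CPM elsewhere. In each of these 3 genes the treated control libraries were the high ones, and KO_TGFb2h lay within the range of the untreated libraries. In *Ndufb5* the KO_TGFb2h libraries (70.2 and 65.2 CPM) were below both control libraries. In *Ndufs4* they (66.6 and 69.2 CPM) were above both KO libraries. The log2 fold changes were -0.58 ± 0.15, -0.66 ± 0.18 and -0.53 ± 0.15 (edgeR adjusted p = 0.0285, 0.0365 and 0.0436). *Ndufb3* was not called by DESeq2, with a replicate block or in any of the 8 fits that left out 1 library. *Ndufs4* was not called with the block or in 7 of those 8 fits, and *Ndufb5* was not called in 5 of them.

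In complex III, *Uqcrb*, a ubiquinone-binding subunit, was the lower gene. It had 67.4 and 118 CPM in control_TGFb2h and 47.2 and 48.4 CPM in KO_TGFb2h. The untreated libraries lay between these groups, at 61.5 and 58.0 CPM in control and 50.7 and 53.1 CPM in KO. Its libraries of control_TGFb2h were 1.75-fold apart. The log2 fold change was -0.95 ± 0.23 (edgeR adjusted p = 0.0249) and was -0.49, no longer called, without control_TGFb2h replicate 2. It was also not called without either KO or either KO_TGFb2h library. Of *Uqcrb*, 90.5% is covered by a copy elsewhere.

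In complex IV, *Cox6b1*, a subunit facing the intermembrane space that touches cytochrome c, was lower and *Cox4nb* higher. *Cox6b1* had 287 and 276 CPM in control_TGFb2h, and 171 and 174 CPM in KO_TGFb2h. Untreated, it was at 193 and 197 CPM in control and at 170.2 and 157 CPM in KO. The treated control libraries were thus above all others and the KO libraries, treated or not, were below all control libraries. The log2 fold change was -0.71 ± 0.13 (edgeR adjusted p = 0.00823). *Cox4nb* had 24.8 and 27.3 CPM in control_TGFb2h and 42.9 and 39.4 CPM in KO_TGFb2h, with 36.3 and 30.2 CPM in control and 39.2 and 43.3 CPM in KO. It was lowest in the treated control libraries, and the log2 fold change was 0.66 ± 0.17 (adjusted p = 0.0299), a call lost with the replicate block and in 5 of the 8 fits without 1 library. *Cox4nb* is not a subunit of complex IV: it lies next to *Cox4i1* and encodes a subunit of a protein insertion complex of the endoplasmic reticulum. *Cox4i1* itself had a log2 fold change of -0.08 ± 0.13.

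In complex V, 2 stator stalk subunits were lower. *Atp5h*, the d subunit, had 81.5 and 100.1 CPM in control_TGFb2h and 47.5 and 53.6 CPM in KO_TGFb2h. In the untreated libraries it was at 60.1 and 53.7 CPM in control and at 80.4 and 55.5 CPM in KO. The treated groups did not overlap, but KO replicate 1 was close to the treated control. The log2 fold change was -0.85 ± 0.20 (edgeR adjusted p = 0.0228). *Atp5f1* had 284 and 371 CPM in control_TGFb2h, and 223 and 180.2 CPM in KO_TGFb2h. As in the untreated cells, all KO libraries were below all control libraries. Its log2 fold change was -0.70 ± 0.17 (adjusted p = 0.0244). Both genes are among those with a copy elsewhere. Of the main subunits of the same complex, *Atp5b* had a log2 fold change of -0.05 ± 0.13 and *Atp5a1* of -0.08 ± 0.13, which was -0.33 with the GC and length offsets introduced below (adjusted p = 0.0704). They were also the most abundant genes of the 83, with 1630 to 1872 CPM and 953 to 1212 CPM over the 8 libraries.

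**Figure D2:**
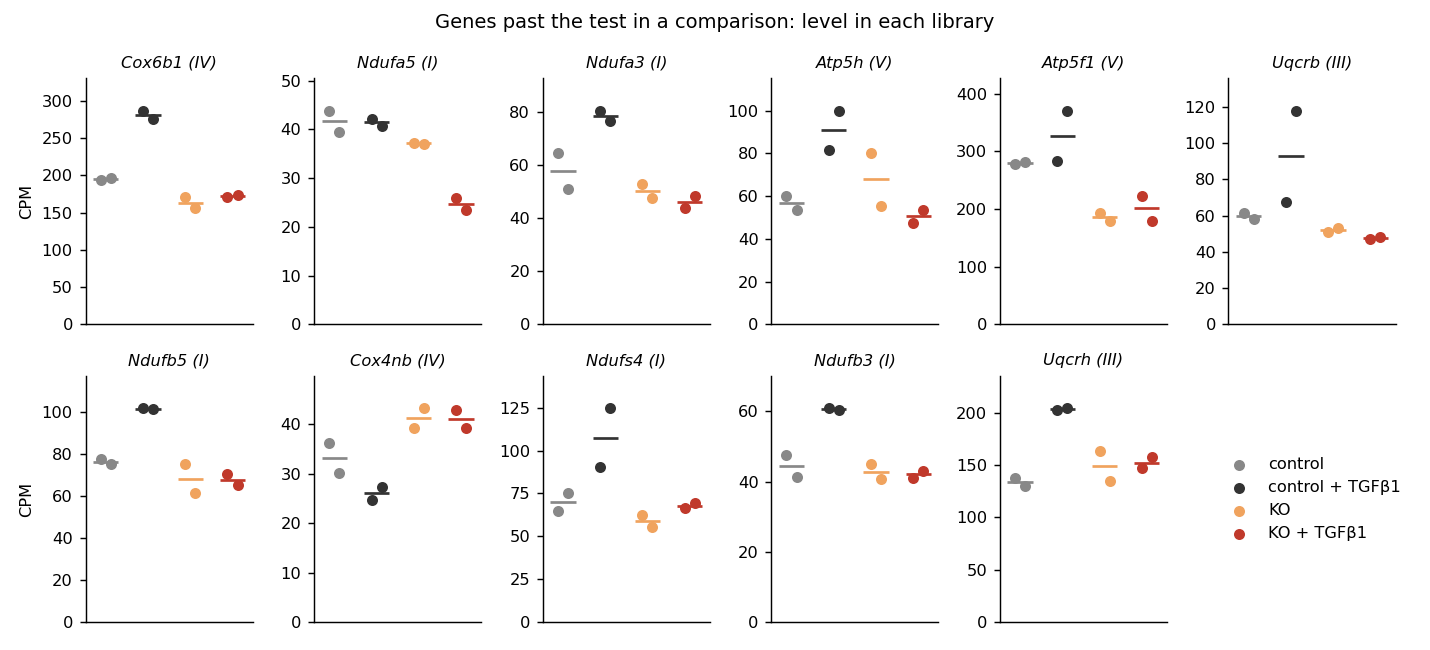
Level in CPM, on axes from 0, of the 11 genes called in any comparison, with a point for each of the 2 libraries of a group and a line for their mean. In *Cox6b1*, *Ndufa3*, *Ndufb5*, *Ndufb3*, *Uqcrh*, *Ndufs4*, *Uqcrb*, *Atp5h* and *Atp5f1* the control_TGFb2h libraries are above all others. The margin is narrow in *Atp5h* and *Atp5f1*, and the control_TGFb2h libraries of *Uqcrb* and *Ndufs4* lie apart from each other. In *Ndufa5* the KO_TGFb2h libraries are below all others.

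The treated difference went with the base composition of the transcripts. GC content was known for 74 of the tested genes, and across them the log2 fold change between the treated groups had a Spearman's rho of 0.49 with it. Across 11428 genes of the table rho was 0.44, and these genes share the same 4 libraries. Of the 25 genes with the lowest GC content (38.4 to 49.1%), 22 were below 0, with a median of -0.34, and 5 were called lower. Of the 24 in the middle, 20 were below 0, 4 were called lower and 1 (*Cox4nb*) higher. Of the 25 with the highest GC content (53.9 to 60.8%), 12 were below 0, the median was 0.04 and 0 were called. The genes are also short, with a median transcript of 868 bases against 2970 for all. With transcript length, the treated log2 fold change had a rho of 0.18 across the 74 genes and 0.16 across the 11428. For the change with TGFβ1 in control cells, rho across the 74 genes was -0.34 with length and -0.28 with GC content.

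The replicates of a group themselves differed along the same axis. Across all genes the difference of replicate 2 from replicate 1 had a rho with GC content of -0.51 in control_TGFb2h, -0.45 in control, 0.38 in KO_TGFb2h and -0.06 in KO. Across the 74 genes it was -0.31, -0.25, 0.19 and -0.14. In control_TGFb2h the libraries were at least 1.5-fold apart for 9 of the 75 genes, among them *Cox8a* with 367 and 176 CPM, beside 2 genes in control, 2 in KO and 0 in KO_TGFb2h.

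A fit that took up GC content and length as offsets for each library was therefore added after these values had been seen. In it none of the 74 genes was lower between the treated groups, beside 5.78% of all genes. The count at an unadjusted p below 0.05 was 16, of which 6 were higher, beside 3432 of the 11428 genes in this fit, of which 1948 were higher. Called higher were 5 (6.76%), beside 7.04% of all genes: *Cox4nb* again and *Atp5g3*, *Ndufb6*, *Atp5s* and *Ndufa1*, which were not called without the offsets. The median log2 fold change of the 74 was -0.01. *Cox6b1* kept an adjusted p of 0.0309 in this fit, with a log2 fold change of -0.40, which is under the size asked for. *Atp5f1*, *Atp5h*, *Ndufa5* and *Ndufa3* had log2 fold changes of -0.46, -0.44, -0.42 and -0.41 in it (adjusted p from 0.0566 to 0.107), and *Ndufb5*, *Uqcrb* and *Ndufs4* of -0.19, -0.19 and -0.17. *Ndufb3* turned from -0.53 to 0.05. With offsets for GC content alone, 13 genes were lower and 2 higher, beside 16.4% of all genes called in either direction, and with offsets for length alone 2 were lower and 2 higher, beside 16.1%.

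**Figure D3:**
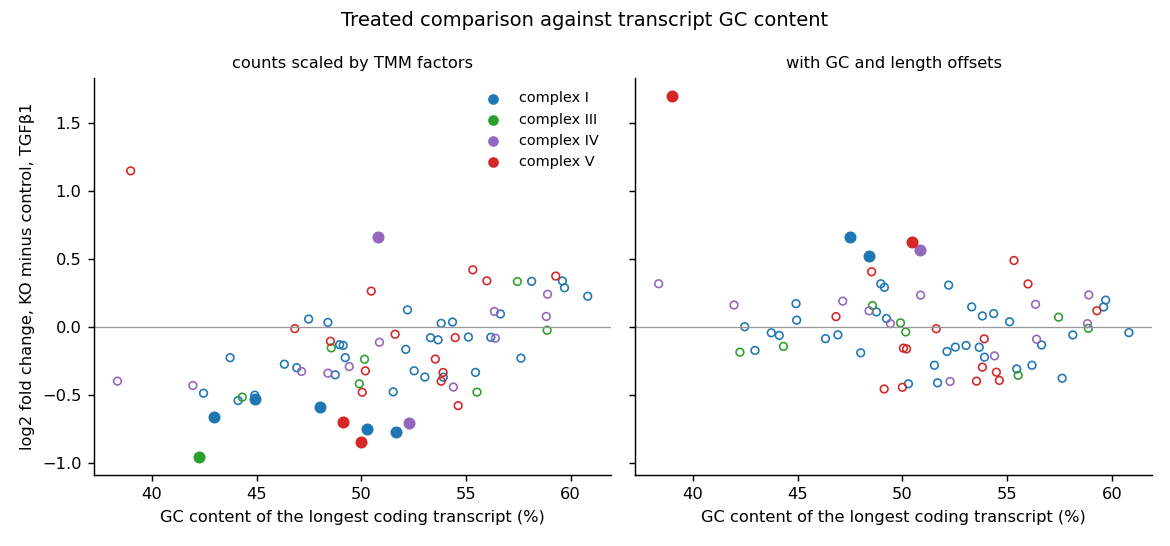
Log2 fold change between the treated groups (KO_TGFb2h minus control_TGFb2h) of 74 genes against the GC content of their longest coding transcript in percent, with TMM scaling (left) and with GC and length offsets (right); filled points were called. On the left, values rise with GC content and 9 filled points lie below 0; on the right, the points spread around 0 and 5 filled points lie above it.

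Lower values between the treated groups were not shown to be particular to the respiratory chain. The median log2 fold change between the treated groups was -0.35 for 81 cytosolic ribosomal protein genes, of which 19 were called lower and 1 higher, and -0.35 for 75 mitochondrial ribosomal protein genes, of which 14 were called lower and 1 higher, beside 6.57% of all genes lower and 8.47% higher. With the offsets the medians were -0.07 and -0.15, and 8 of the 81 and 8 of the 75 genes were called lower, beside 5.78% of all genes and 0 of the 74 respiratory chain genes. This difference between the lists was not tested.

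TGFβ1 raised 2 of the 75 genes (2.67%) in the control cells, beside 4.69% of all genes called higher. None was lower, beside 4.47% of all. At an unadjusted p below 0.05 of the edgeR test, 22 genes pointed up and 1 down, beside 3491 of the 13028 genes, 1768 of them up. DESeq2 called 5 of 76 higher and 0 lower, beside 6.99% of all genes in either direction. The median log2 fold change (control_TGFb2h minus control) was 0.23, beside 0.02 over all genes, and values above 0 were seen for 55 of the 75. It was 0.22 in complex I, 0.31 in III, 0.30 in IV and 0.23 in V. *Uqcrh*, the hinge protein of complex III, which binds cytochrome c1, was at 137 and 129.6 CPM in control and at 202 and 204 CPM in control_TGFb2h. It was at 163 and 134 CPM in KO and at 147 and 158 CPM in KO_TGFb2h. The treated control libraries were above the other 6, and the log2 fold change was 0.61 ± 0.14 (SE; edgeR adjusted p = 0.0321). *Cox6b1*, whose values are given above, had a log2 fold change of 0.53 ± 0.13 (adjusted p = 0.0330). Both calls were lost with the replicate block and with only the 4 libraries compared, where 6.38 and 3.74% of all genes were called. Without either control library 0 genes were called, beside at most 2.28% of all genes in either direction, and without either KO library 0 again, beside 4.51 and 4.46%. Without either KO_TGFb2h library 1 was called, beside 8.20 and 8.35%, and without either control_TGFb2h library neither *Uqcrh* nor *Cox6b1* was. Without its replicate 1 there were 7 other genes, 4 higher and 3 lower (*Atp5d*, *Cox5b* and *Cox8a*), beside 11.1% of all genes, and without its replicate 2 there were 2 other genes, both higher (*Atp5e* and *Atp5j2*), beside 7.30%. With scaling by total counts alone, neither was called and the median of all genes fell to -0.13, the median of the 75 being 0.09.

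With the GC and length offsets, 1 gene (1.35%) rose with TGFβ1 in control cells, beside 6% of all genes. This was *Atp5e*, the ε subunit of the synthase, with 113 and 82.9 CPM in control and 185 and 136 CPM in control_TGFb2h. Its log2 fold change was 0.67 with the offsets (edgeR adjusted p = 0.0203) and 0.71 ± 0.20 without them (adjusted p = 0.0523). The median of the 74 was 0.09 with the offsets.

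In the KO cells none of the 75 genes was called with TGFβ1, beside 6.82% of all genes called in either direction. The edgeR test had 1 gene at an unadjusted p below 0.05, *Ndufa5*, beside 2956 of the 13028 genes, and DESeq2 called 0. The median log2 fold change (KO_TGFb2h minus KO) was -0.03, beside 0.00 over all genes, and by complex it ran from -0.03 in V to -0.02 in IV. *Ndufa5* had a log2 fold change of -0.59 ± 0.16 (adjusted p = 0.0567). With the GC and length offsets it was -0.51, and *Ndufa5* was then the 1 gene called lower (adjusted p = 0.0432), beside 5.15% of all genes. It was also called lower with scaling by total counts alone, with GC offsets and without either control_TGFb2h library.

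**Figure D4:**
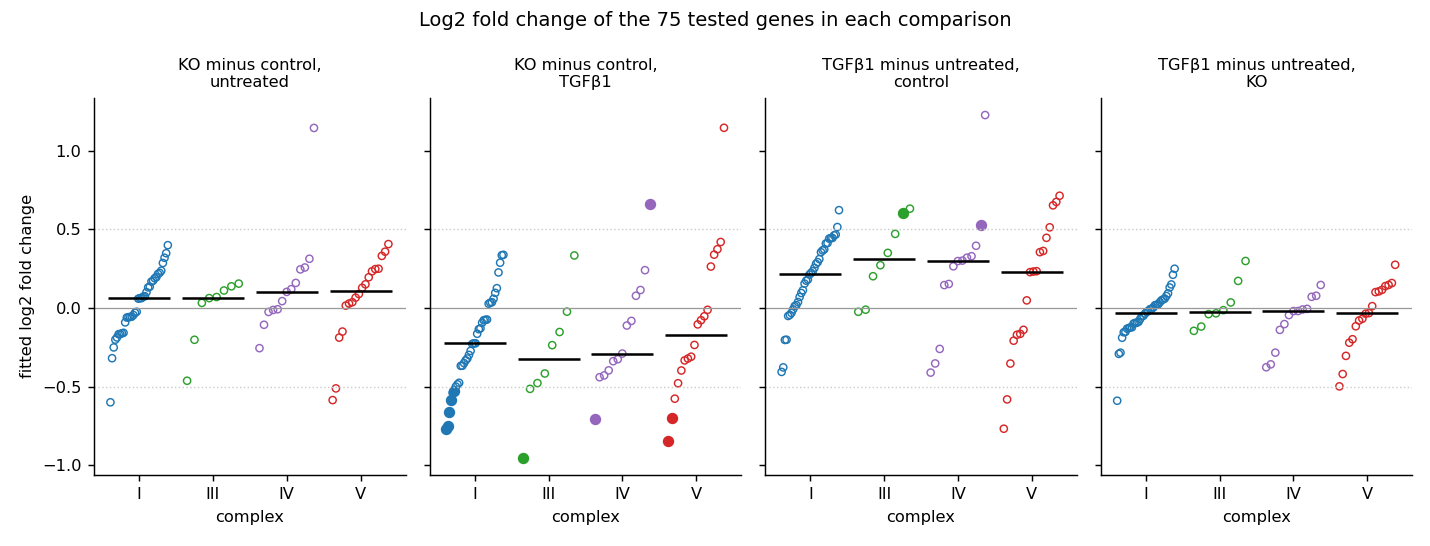
Fitted log2 fold change of the 75 tested genes in the 4 comparisons, in order within each complex, with the median as a line, called genes filled and dotted lines at 0.5 and -0.5. The medians lie below 0 in all 4 complexes between the treated groups, above 0 with TGFβ1 in control cells and near 0 in the other panels.

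Whether the response to TGFβ1 differed between the genotypes was tested by the interaction term. None of the 75 genes passed it at an adjusted p below 0.05, and 0% of all genes did. At an unadjusted p below 0.05 there were 12, all pointing to a lower response in KO, beside 1134 of the 13028 genes, 642 of them pointing to a higher one, and DESeq2 called 0. The median of the interaction was -0.24 on the log2 scale, beside 0.00 over all genes. With the GC and length offsets it was -0.07, and 4 of the 74 genes had an unadjusted p below 0.05, 2 of them higher. *Atp5h* had the smallest p of the 75 in it, with -1.10 ± 0.28 (edgeR adjusted p = 0.444). A different response of these genes in KO cells was thus not shown, although the medians without offsets differed between the genotypes. The comparisons named above share libraries and are not independent of each other: a high treated control enters both the treated comparison and the response of the control cells.

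Sums over the genes of a complex depended on the scaling. With TMM factors, the genes of complex I summed to 2883 and 2639 CPM in control, 3227 and 3351 in control_TGFb2h, 2960 and 2747 in KO, and 2822 and 2807 in KO_TGFb2h. Those of complex III summed to 973 and 908 CPM in control, 1173 and 1144 in control_TGFb2h, 983 and 895 in KO, and 987 and 968 in KO_TGFb2h. In both complexes the treated control libraries were above the other 6 on this scale. In complex IV they were at 2199 and 1918 CPM and overlapped KO, with 1954 and 1800 CPM, and in complex V they were at 4912 and 4749 CPM, above the other 6 libraries, which reached 4601 CPM. As shares of the counts, without a scaling factor, this order held in complex III but not in complexes I and V: in complex I KO replicate 1 (0.313%) was above control_TGFb2h replicate 1 (0.308%), and in complex V KO replicate 1 (0.486%) and control replicate 1 (0.482%) were above both treated control libraries (0.468 and 0.454%). All 83 genes took 1.11% of the counts in KO replicate 1 (95% Wilson interval 1.10 to 1.12%) and 0.920% in KO_TGFb2h replicate 2 (0.915 to 0.925%), the highest and the lowest of the 8. The interval covers counting error only.

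**Figure D5:**
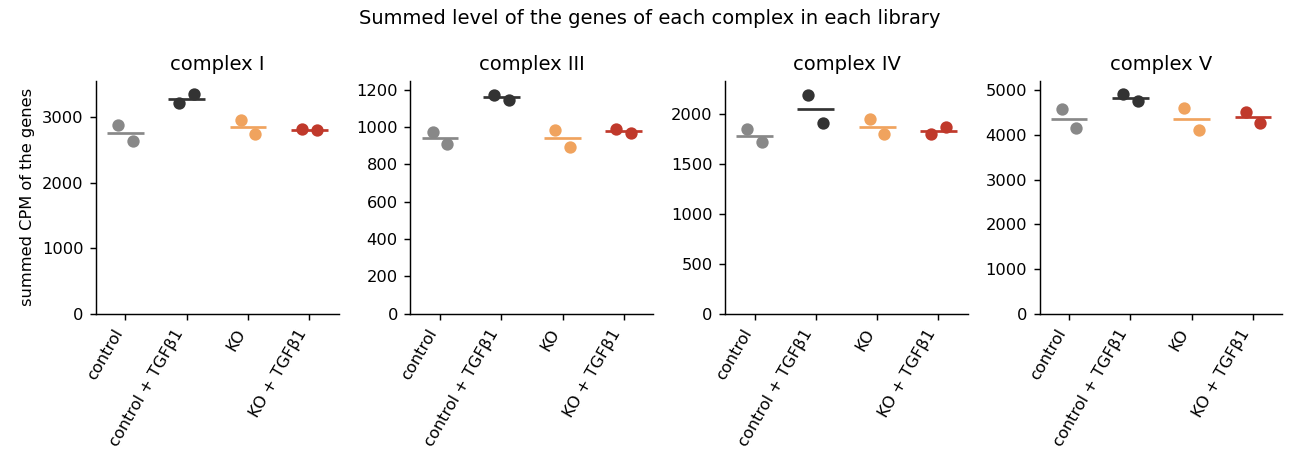
Summed CPM of the genes of each complex, on axes from 0, with a point for each of the 2 libraries of a group and a line for their mean. With this scaling by TMM factors the control_TGFb2h libraries are highest in complexes I, III and V, whereas as shares of the counts they are highest only in complex III.

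The genes around the chain that the name rule does not take were counted from lists. Succinate dehydrogenase, complex II, is encoded by 4 nuclear genes, of which none was called in any comparison without offsets, and their medians were 0.09, -0.16, 0.18 and -0.09 in the order untreated genotypes, treated genotypes, TGFβ1 in control and TGFβ1 in KO. With the GC and length offsets *Sdha* was higher between the treated groups (log2 fold change 0.69, edgeR adjusted p = 0.0239). Of 3 further components, *Ndufab1*, the acyl carrier protein of complex I, was lower between the treated groups, with a log2 fold change of -0.90 ± 0.19 (edgeR adjusted p = 0.0165) and -0.70 with the offsets (adjusted p = 0.0185), where it was also lower with TGFβ1 in KO (-0.62, adjusted p = 0.0366), while cytochrome c (*Cycs*) had -0.65 ± 0.23 (adjusted p = 0.0912) and cytochrome c1 (*Cyc1*) 0.09 ± 0.20 (adjusted p = 0.786). Of 13 assembly factors of complex I, 1 was lower between the treated groups, *Tmem126b*, with -0.91 ± 0.26 (adjusted p = 0.0449), beside 6.57% of all genes, and with the offsets it had -0.47 (adjusted p = 0.184) and 0 of the 13 were called. Of 18 assembly factors of complex IV, 1 was higher there, *2310016M24Rik*, now named *Cox14*, with 0.83 ± 0.17 (adjusted p = 0.0148), beside 8.47% of all genes, and it was 0.90 with the offsets (adjusted p = 0.00584), where it was also higher with TGFβ1 in KO (0.60, adjusted p = 0.0289). None of the 5 tested assembly factors of complex III or of the 3 of complex V was called without offsets, and with them 1 of complex III was lower with TGFβ1 in control.

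Among factors known to drive these genes, *Ppargc1a* and *Ppargc1b* were lower with TGFβ1 in both genotypes. They encode the coactivators PGC-1α and PGC-1β of mitochondrial biogenesis. *Ppargc1a* averaged 20.1 CPM in control and 4.43 in control_TGFb2h, with a log2 fold change of -2.18 ± 0.27 (edgeR adjusted p = 0.00248). In KO it averaged 18.5 CPM untreated and 2.65 treated, with -2.79 ± 0.29 (adjusted p = 0.000933). *Ppargc1b* fell from 7.68 to 0.698 CPM in control, by 3.44 on the log2 scale, and from 6.07 to 0.926 CPM in KO, by 2.71 (adjusted p = 0.00378 and 0.00984). *Pprc1*, which encodes a related coactivator, was not called and had log2 fold changes of -0.45 in control and 0.07 in KO (adjusted p = 0.522 and 0.940). In control cells TGFβ1 also lowered *Polrmt*, the RNA polymerase of mitochondria, from 36.2 to 19.6 CPM (log2 fold change -0.88 ± 0.18, adjusted p = 0.0195), and *Gabpb2* (log2 fold change -0.55 ± 0.14, adjusted p = 0.0449). *Polrmt* was 34.1 CPM in KO_TGFb2h and was higher there than in control_TGFb2h (log2 fold change 0.80 ± 0.18, adjusted p = 0.0185). With the GC and length offsets neither difference of *Polrmt* was called, the log2 fold changes being -0.46 (adjusted p = 0.138) and 0.23 (adjusted p = 0.437), whereas *Ppargc1a*, *Ppargc1b* and *Gabpb2* were called as before. *Nrf1*, *Gabpa* and *Yy1*, which encode the factors of the 3 motifs, were called in no comparison without offsets, where their log2 fold changes of largest size were -0.17, 0.36 and -0.38. With the offsets *Yy1* was lower between the treated groups (log2 fold change -0.55, adjusted p = 0.0316). Of the 13 regulators tested, 4 were lower with TGFβ1 in control, beside 4.47% of all genes, and 2 in KO, beside 2.57%, and none was higher in either. With the offsets 3 were lower in control, beside 637 of the 11428 genes in that fit, and 2 in KO, beside 5.15%.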

How the data were processed

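RNA-seq libraries of NMuMG cells, 2 per group in 4 groups taken from the sample labels, were analysed. The authors deposited raw counts of reads per gene without normalization. By the study's methods the reads were aligned with subjunc to mm10 and mm9 and duplicates were removed, whereas the processing notes of the labels name HISAT2, limma and mm10. The counting tool and strand setting are not given in the sources used here. Single-end reads without duplicates would give at most about 2 counts per exon base, and 11 of the 83 genes exceeded this in at least 1 library. Methods and labels also differ on kit, sequencer and read layout. Gene identifiers match GENCODE vM1 (NCBIM37, mm9), whose exon lengths were used.

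CPM used TMM factors (0.928 to 1.06). Tests used edgeR 4.0.16 under R 4.3.3: filterByExpr over the 4 groups (13028 genes), one model of group means for all 8 libraries, glmQLFit and glmQLFTest, and Benjamini-Hochberg adjustment over all genes. Residual degrees of freedom were 4, prior degrees of freedom 5.5, and the biological coefficient of variation 0.18. Calls needed a log2 fold change beyond 0.5 in either direction and an adjusted p under 0.05, or in the interaction that p alone. SE is the log2 fold change divided by the square root of F. DESeq2 1.42.0, other scalings, no filter, a replicate block, only the 4 libraries compared and leaving out each library were alternatives, and spline offsets (4 degrees of freedom) for GC content and length were added after seeing the data. A fit with a replicate block in which the replicate numbers of KO_TGFb2h were exchanged was also added then. Copies were searched with blastn.

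Members and lists were chosen with earlier results of these data known. Named were the genes called in a comparison, the 2 highest and the lowest per kb of each complex, tissue isoforms, genes that are not subunits of the complex they are named for and genes not tested. Others, such as *Atp5e* and the regulators given, were named after their values were seen. The study calls the libraries biological replicates, and p-values measure the spread between them.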

Additional observations from a re-analysis of the deposited data

Results flagged for a closer look

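*Atp5l-ps1*, the single symbol that the -ps rule left out, is annotated apart from the genes described and entered no comparison. It nevertheless had counts in all 8 libraries, from 1 to 9, the highest being control_TGFb2h replicate 2, which is above the 3 counts that a count of 0 allows. Its parent gene *Atp5l* is among those with a near-identical copy elsewhere.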

How the results depend on the processing

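The number of genes called between the treated groups, 10 as reported, was 0 with only the 4 libraries, 5 with GC and length offsets (1 shared with the 10), 4 with length offsets (3 shared) and 0 to 14 without 1 library. With the replicate block it was 7, all lower and among the 10, beside 11.4% of all genes called. The share of all genes called between the treated groups was 15.0% as reported and 3.21% with only the 4 libraries. That share was 12.8% with GC and length offsets and 16.1% with length offsets, and it also moved without 1 library, as given above. The number called with TGFβ1 in control, 2 as reported, was 5 with DESeq2 (6.99% of all genes called), 0 with total counts alone (10.9%), 7 without the filter (9.88%), 0 with the replicate block (6.38%), 7 with exchanged replicate numbers (15.0%), 0 with only the 4 libraries (3.74%), 1 with GC and length offsets (*Atp5e*, not among the 2; 11.6%), 5 with GC offsets (12.7%), 1 with length offsets (10.1%) and 0 to 7 without 1 library, beside 9.16% of all genes as reported. The count of 0 in the untreated comparison became 1 without the filter (3.69% of all genes called) and with only the 4 libraries (6.48%), *Atp5f1* both times. The count of 0 in the interaction became 1 without the filter (*Atp5h*, beside 1.03% of all genes). With TGFβ1 in KO, 1 gene, *Ndufa5* each time, was called with total counts alone (7.64% of all genes) and exchanged numbers (11.9%). The same held with GC and length offsets (11.8%) and with GC offsets (11.9%). The median between the treated groups moved to -0.14 without the genes of chromosomes 3 and 7, -0.0113 with GC and length offsets, -0.11 with length offsets, and -0.26 to -0.15 without 1 library. The median with TGFβ1 in control moved to 0.0920 with total counts alone and 0.0892 with GC and length offsets, and that in KO to -0.19 with total counts alone, a scaling that shifted the median of all genes to -0.13 and -0.15. *Ndufb3* reversed to 0.0503 between the treated groups with GC and length offsets. The causes were not tested. The replicate numbers were not taken as pairs: deviations of same-numbered libraries correlated at 0.10, -0.47, 0.30 and -0.01 in the 4 comparisons. With 2 libraries a group and 4297832 counts in the shallowest, differences in the rarest of these genes could not be measured well.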
